A study of Mus musculus with 10 samples.

Results

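Enteroendocrine cells are the hormone-making cells of the intestinal epithelium, and 8 transcription factors that act in their formation were examined in 10 RNA-sequencing libraries of mouse intestinal cells. The 8 are Neurog3, Neurod1, Pax4, Pax6, Insm1, Isl1, Rfx6 and Nkx2-2. They were taken by gene symbol from the 20579 genes of the count table, and all 8 were present. The cells carried green fluorescent protein under the Hopx promoter and were sorted from the intestines of embryos at embryonic day 18.5, with C57BL6/J and 129S4 named as the strain. One group, p57KO, lacks p57Kip2, the cyclin-dependent kinase inhibitor encoded by Cdkn1c, and the other, p57WT, has it. Each group held 5 libraries, all from Hopx-GFP sorted cells, so no library shows the unsorted intestine. The design of the knockout allele, and which cells other than crypt cells express the reporter, are not stated in any source used here. Nothing in the labels states that the libraries of a group came from separate animals, and if they did not, p-values measure only the spread between these samples.

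Neurog3 is the basic helix-loop-helix (bHLH) factor that starts the endocrine programme in single epithelial progenitors and is then switched off. Neurod1, a related bHLH factor and a target of Neurog3, and the zinc-finger factor Insm1 follow it and accompany differentiation. Pax4, Pax6, Isl1, Nkx2-2 and Rfx6 act during and after this step and set which hormones a cell makes. The same 8 genes serve the endocrine islets of the pancreas, and several of them also serve neurons.

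bHLH factors bind the E-box, CANNTG, and the promoters of 4 of these genes are printed with their E-boxes marked. RefSeq's promoter table for GRCm38.p6, with a window from upstream of a gene's start site to just inside it, held 7 entries for 6 of the 8 genes: Neurog3, Neurod1, Pax6, Isl1, Rfx6 and Nkx2-2. The 4 are Neurog3, the progenitor factor, its target Neurod1, and Isl1 and Nkx2-2. The last are a homeodomain pair picked for unlike fitted folds, a difference that was not tested. The sequences are printed 5′ to 3′ on the gene's strand, with each CANNTG in capitals. They lie at chr10:62132840-62133139 (plus strand), chr2:79456587-79456886 (minus strand), chr13:116309639-116309938 (minus strand) and chr2:147186353-147186652 (minus strand), in the order given.
Neurog3: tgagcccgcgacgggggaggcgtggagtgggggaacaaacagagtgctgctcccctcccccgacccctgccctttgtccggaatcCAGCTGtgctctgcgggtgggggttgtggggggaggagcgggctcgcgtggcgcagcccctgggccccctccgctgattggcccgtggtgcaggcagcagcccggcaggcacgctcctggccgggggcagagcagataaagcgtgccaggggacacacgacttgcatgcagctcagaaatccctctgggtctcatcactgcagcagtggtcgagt
Neurod1: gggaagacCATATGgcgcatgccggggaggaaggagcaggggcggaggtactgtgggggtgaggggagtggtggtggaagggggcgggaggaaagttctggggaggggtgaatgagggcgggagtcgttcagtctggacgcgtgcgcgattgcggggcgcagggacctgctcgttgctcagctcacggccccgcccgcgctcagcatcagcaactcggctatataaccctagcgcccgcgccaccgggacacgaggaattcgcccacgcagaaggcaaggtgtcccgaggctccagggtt
Isl1: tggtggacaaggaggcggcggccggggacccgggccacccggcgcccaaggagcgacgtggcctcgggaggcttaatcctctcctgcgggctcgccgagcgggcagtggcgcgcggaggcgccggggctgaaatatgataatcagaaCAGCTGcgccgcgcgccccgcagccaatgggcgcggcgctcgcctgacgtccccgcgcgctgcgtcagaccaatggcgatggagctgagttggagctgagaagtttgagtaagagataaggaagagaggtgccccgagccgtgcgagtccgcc
Nkx2-2: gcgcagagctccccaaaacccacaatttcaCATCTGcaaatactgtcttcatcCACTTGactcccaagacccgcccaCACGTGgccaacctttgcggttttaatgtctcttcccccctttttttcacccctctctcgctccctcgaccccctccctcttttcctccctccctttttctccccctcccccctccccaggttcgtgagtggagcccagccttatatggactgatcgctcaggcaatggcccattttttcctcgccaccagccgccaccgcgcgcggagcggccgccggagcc
The palindromic form CAGCTG occurred once in the Neurog3 window, at position -165 from the start site, and once in the Isl1 window, at -103. The Neurod1 window held 1 E-box, CATATG, at -242. Nkx2-2 held 3 of them, the most of the 7 entries, and 1 of the 3 reads CAGATG on the other strand. Of the other entries, Rfx6 had 1 (CATTTG, starting at position 3), 1 of the Pax6 entries had 1 (CAAATG, at -20) and the other Pax6 entry had 0. Over all 32851 promoters in the table, searched on both strands, 72.3% held at least 1 CANNTG with a median of 1 match, 16.3% held CAGCTG and 17.2% held CAGATG. Both of the latter are themselves CANNTG matches, and a match is a description of the letters only.

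Library facts bear on every value that follows. Total counts ranged from 8037887 to 26809231, and the lowest raw count of any of the 8 factors was 10 (Nkx2-2 in p57WT 3), so none was at the level of 0 to 3 counts. Cdkn1c was at 0.15 to 2.06 CPM (counts relative to library size, which edgeR's trimmed mean of M values, TMM, had scaled) in p57KO and at 151 to 458 CPM in p57WT, which matches the genotype labels, and Hopx was at 127 to 199 and 60.4 to 78.1 CPM. The labels call the cells Hopx+ intestinal stem cells, yet 6 smooth muscle markers summed to 39481 to 87553 CPM in p57WT and 4120 to 29683 CPM in p57KO. The 18 epithelial markers summed to 3202 to 7653 CPM in p57WT and 9287 to 18009 CPM in p57KO, and 16 of them rose, beside 19.3% of all genes tested. Ribosomal RNA repeats took over 5% of the counts in p57KO 5 and in p57WT 1, 3, 4 and 5, and under 5% in p57KO 1 to 4 and p57WT 2. A number in the labels (607 for p57KO 1, p57KO 2 and p57WT 1, 608 for p57KO 3 to 5, 740 for p57WT 2 to 5), whose meaning was not given, nearly follows genotype.

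The question asked of the genotype comparison was whether the factors of the endocrine programme differ in Hopx-GFP cells that lack p57Kip2. Of the 8 factors, 5 rose in p57KO: Pax6, Neurod1, Isl1, Pax4 and Rfx6, by 4.13 to 7.08-fold. The other three, Neurog3, Insm1 and Nkx2-2, had fitted folds of 2.16 to 2.68 and did not pass the test, which was edgeR's quasi-likelihood test with a Benjamini-Hochberg adjusted p below 0.05 over 16710 genes. None of the 8 fell, and with the default scaling of edgeR, DESeq2 and limma voom none had a lower fitted level in p57KO; scaled to epithelial markers in edgeR, Neurog3 did (-0.39). In the same fit 36.5% of all genes were called, 19.3% as higher, and the median log2 fold change was 0.08 over all genes against 2.28 over the 8 factors. For 4 factors (Neurod1, Pax4, Pax6, Isl1) every p57KO library lay above every p57WT library, which held for 11.5% of all genes tested. Of all genes, 20.5% were called as higher in the authors' deposited table, and 6 of the 8 factors were, Nkx2-2 among them. The count of factors called was 6 with DESeq2 (20.9% of all genes called higher), 5 with its scaling in edgeR (19.8%), 6 without the expression filter (17.2%) and 7 with limma voom (18%). These are bulk libraries, in which more endocrine cells and more RNA of these genes per cell cannot be told apart.

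**Figure D1:**
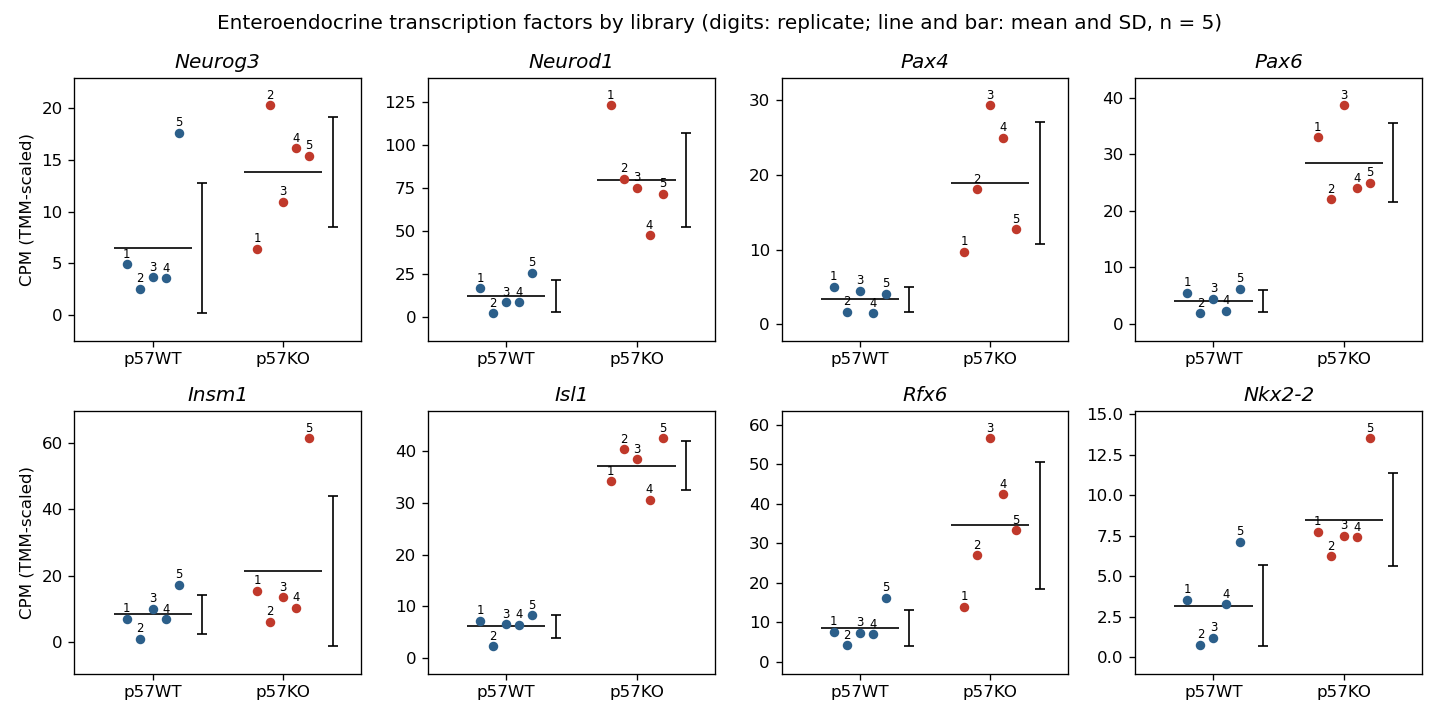
CPM (y axis, linear, own scale per panel) of the 8 factors in the 5 p57WT (blue) and 5 p57KO (red) libraries. Each point is 1 library with its replicate number, the line is the mean and the bar beside it the mean ± SD (n = 5). Isl1 and Pax6 separate the genotypes in every library, while in Neurog3 p57WT 5 lies among the p57KO libraries and in Insm1 most libraries of both genotypes share 1 range.

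The progenitor factor Neurog3 (ENSMUSG00000044312, GRCm38 chromosome 10, 62133090 to 62134763, plus strand) was measured at 6.36, 20.3, 10.96, 16.1 and 15.4 CPM in p57KO 1 to 5. In p57WT 1 to 5 it was at 4.89, 2.53, 3.63, 3.53 and 17.7 CPM. The groups overlap through p57WT 5, the second-highest of all 10 libraries, and through p57KO 1, which lies among the p57WT values. Its mean was 13.8 ± 5.33 CPM in p57KO against 6.45 ± 6.32 CPM in p57WT (SD, n = 5). The log2 fold change of 1.11 (95% interval -0.02 to 2.24) gave an edgeR adjusted p of 0.112. Without p57WT 5 the log2 fold change was 1.93 and passed (edgeR adjusted p = 0.00573). The value also carries a limit of annotation, since 273 of its 1674 exon bases (16.3%) are shared with Fam241b on the opposite strand and the strand setting of the counting was not given. Fam241b itself rose, with a log2 fold change of 1.32 (edgeR adjusted p = 0.00424).

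Neurod1 (ENSMUSG00000034701, chromosome 2, 79452521 to 79456751, minus strand), which maintains the programme that Neurog3 starts, was the most abundant of the 8 per length. It was at 123, 80.1, 75.1, 47.6 and 71.6 CPM in p57KO 1 to 5, against 16.8, 2.21, 8.59, 8.63 and 25.7 CPM in p57WT 1 to 5. Its groups did not overlap: p57KO 4, the lowest of its group, stood above p57WT 5, the highest of the other. The means of 79.4 ± 27.3 and 12.4 ± 9.08 CPM (SD, n = 5 each) differed by a log2 fold change of 2.69 ± 0.51 (SE), with an edgeR adjusted p of 0.00205. Within p57WT the highest library was 11.6 times the lowest. Of its 2729 exon bases 201 are shared with Cerkl on the same strand, which was at most at 4.24 CPM in any library.

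Pax4 (ENSMUSG00000029706, chromosome 6, 28442334 to 28449353, minus strand) is a paired-box repressor that acts early and favours some hormone fates over others. In p57KO 1 to 5 it was at 9.72, 18.1, 29.3, 25.0 and 12.7 CPM, and in p57WT 1 to 5 at 5.01, 1.70, 4.48, 1.44 and 4.03 CPM. All p57KO libraries were above all p57WT libraries, with p57KO 1 the closest to them. The log2 fold change was 2.52 ± 0.44 (SE), with an edgeR adjusted p of 0.00135.

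Pax6 (ENSMUSG00000027168, chromosome 2, 105668900 to 105697364, plus strand) is the paired-box activator of hormone genes in mature endocrine cells. It was at 33.03, 22.1, 38.7, 24.0 and 25.0 CPM in p57KO 1 to 5 against 5.46, 1.86, 4.48, 2.35 and 6.16 CPM in p57WT 1 to 5. The p57KO libraries lay close together, the highest being 1.75 times the lowest, and all were above the p57WT libraries. With means of 28.5 ± 7.04 and 4.06 ± 1.89 CPM (SD, n = 5 each), its log2 fold change of 2.82 ± 0.37 (SE) was the largest of the 8 (edgeR adjusted p = 0.000343). Among all genes tested, 2.18% had a larger log2 fold change.

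Isl1 (ENSMUSG00000042258, chromosome 13, 116298281 to 116309689, minus strand), a LIM-homeodomain factor of differentiated endocrine cells, had the smallest ratio of highest to lowest library within p57KO. The p57KO libraries 1 to 5 held 34.1, 40.3, 38.4, 30.5 and 42.4 CPM, against 7.28, 2.29, 6.53, 6.41 and 8.30 CPM in p57WT 1 to 5. The p57KO libraries differed by at most 1.39-fold among themselves and none overlapped with p57WT, where p57WT 2 was low and the other four were alike. The log2 fold change was 2.603 ± 0.32 (SE), with the smallest edgeR adjusted p of the 8, 0.000286.

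Nkx2-2 (ENSMUSG00000027434, chromosome 2, 147177546 to 147194243, minus strand), the other homeodomain factor, acts on hormone choice as well. It was at 7.74, 6.23, 7.49, 7.40 and 13.5 CPM in p57KO 1 to 5, and at 3.53, 0.79, 1.21, 3.27 and 7.11 CPM in p57WT 1 to 5. The overlap came from p57WT 5, which lay above p57KO 2. Its log2 fold change of 1.42 (95% interval 0.28 to 2.57) had an edgeR adjusted p of 0.0506. Without p57WT 5 the value was 1.97 (edgeR adjusted p = 0.015), and in the authors' deposited table it was 1.46 with an adjusted p of 0.0196. Of its 2875 exon bases 278 (9.67%) are shared with the antisense gene Nkx2-2os, not analysed here.

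Rfx6 (ENSMUSG00000019900, chromosome 10, 51677756 to 51730432, plus strand), a winged-helix factor that acts downstream of Neurog3 and drives Pax6 and hormone genes, was at 13.8, 26.9, 56.6, 42.4 and 33.3 CPM in p57KO 1 to 5. In p57WT 1 to 5 it was at 7.51, 4.19, 7.26, 6.93 and 16.2 CPM. Here p57WT 5 stood above p57KO 1, and the other eight libraries separated by genotype. Means of 34.6 ± 16.1 and 8.43 ± 4.57 CPM (SD, n = 5 each) gave a log2 fold change of 2.05 ± 0.42 (SE; edgeR adjusted p = 0.00293).

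Insm1 (ENSMUSG00000068154, chromosome 2, 146221921 to 146225020, plus strand), the zinc-finger repressor, varied most among libraries of 1 genotype. It was at 15.3, 6.10, 13.4, 10.3 and 61.3 CPM in p57KO 1 to 5, and at 7.06, 0.91, 9.92, 6.80 and 17.2 CPM in p57WT 1 to 5. p57KO 5 stood 10 times above p57KO 2, p57WT 5 stood 18.9 times above p57WT 2, and the groups overlapped widely. The log2 fold change of 1.35 (95% interval -0.16 to 2.86) had an edgeR adjusted p of 0.143, and without p57KO 5 it was 0.45 (edgeR adjusted p = 0.565).

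**Figure D2:**
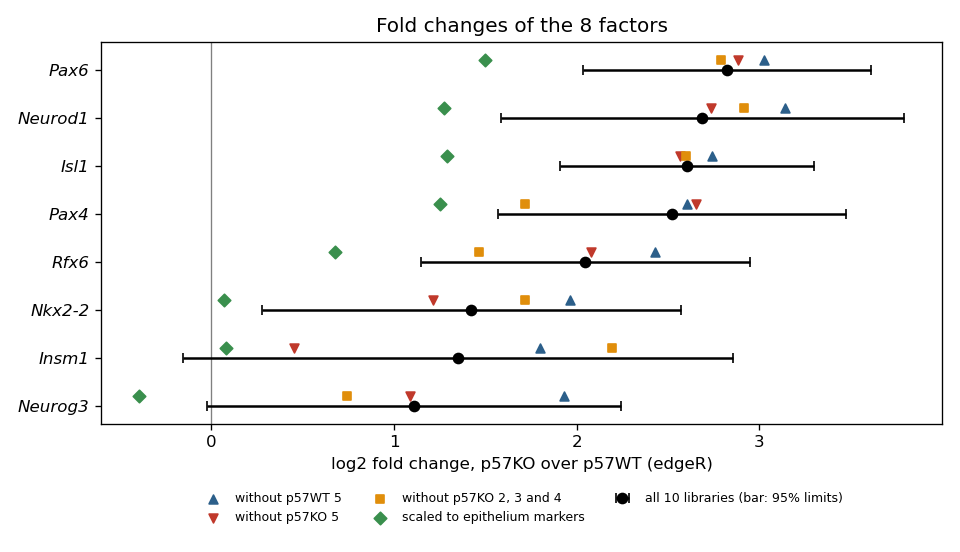
Log2 fold change of p57KO over p57WT (x axis) for each factor, with all 10 libraries (black, with 95% intervals), without p57WT 5 (blue triangles), without p57KO 5 (red triangles), without p57KO 2, 3 and 4 (orange squares) and scaled to epithelial markers (green diamonds), all from edgeR. The intervals of Neurog3 and Insm1 include 0, the factors with no overlap between genotypes lie at 2.52 to 2.82, and scaling to epithelial markers lowers all 8, Neurog3 to -0.39.

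Leaving out each library in turn kept all 5 calls in 10 of 10 fits, in which 13.9 to 21.2% of all genes were called higher. The log2 fold changes then ranged from 2.41 to 3.14 for Neurod1, 2.32 to 2.72 for Pax4, 2.63 to 3.03 for Pax6, 2.38 to 2.74 for Isl1 and 1.81 to 2.43 for Rfx6. The direction of Neurog3 depended on the scaling. When libraries were scaled to the epithelial markers, which rose by a median of 1.33, the median log2 fold change of all genes moved from 0.08 to -1.26 and the called genes from 3226 higher and 2881 lower to 465 higher and 10312 lower. Under that scaling 4 factors were still called higher, against 2.78% of all genes: Pax6 at 1.499, Isl1 at 1.29, Neurod1 at 1.28 and Pax4 at 1.25 (edgeR adjusted p of 0.0078, 0.0108, 0.0427 and 0.033). Rfx6 was at 0.68, Insm1 at 0.08, Nkx2-2 at 0.07 and Neurog3 at -0.39, and none of these passed.

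Some libraries stood apart across the factors. p57WT 2 was below its genotype mean on the log2 scale for 8 of 8 factors, with a median deviation of -1.10, and p57WT 5 was above it for 8 of 8, with a median of 1.26. The summed level of the 8 factors was 16.5 CPM in p57WT 2 and 102 CPM in p57WT 5, with 57.6, 46.1 and 39.4 CPM in p57WT 1, 3 and 4. The epithelial sum of p57WT 5 was the lowest of all 10 libraries, at 3202 CPM. Among p57KO libraries the summed level stayed between 203 and 275 CPM, and no library lay to one side for all factors. The p57KO libraries instead differed factor by factor: p57KO 1 was highest for Neurod1 and lowest for Neurog3, Pax4 and Rfx6, and p57KO 5 was highest for Insm1, Isl1 and Nkx2-2.

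**Figure D3:**
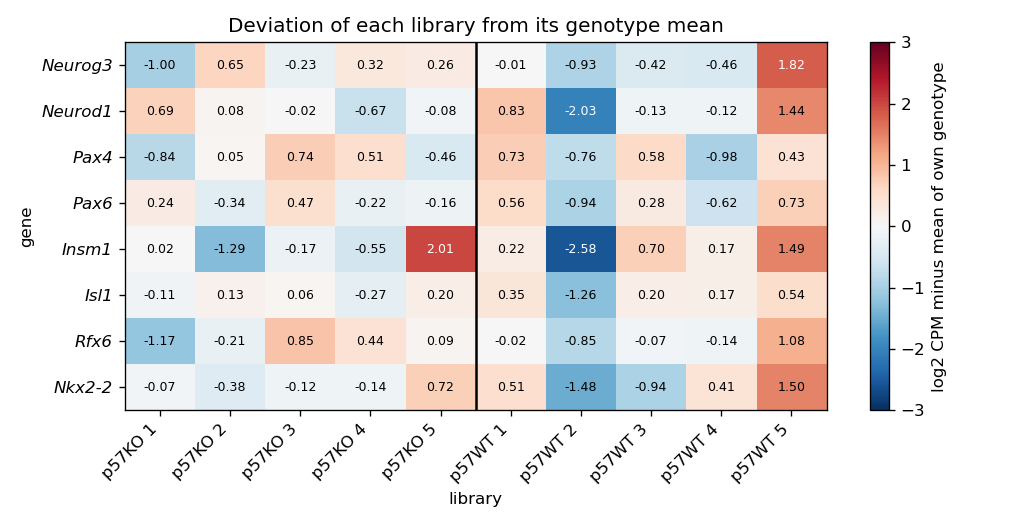
Deviation of each factor (rows) in each library (columns) from the mean of its genotype, in log2 CPM; red is above and blue below. The p57WT 2 column is below the mean for 8 of 8 factors and the p57WT 5 column above it for 8 of 8.

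Because these genes also serve the pancreatic islet, islet RNA was examined beside them. Ins2, an insulin gene, was at 0.086, 216, 188, 44.95 and 0.087 CPM in p57KO 1 to 5 and at no more than 0.91 CPM in any p57WT library. Ins1 followed with 0.77, 16.9, 41.8, 24.7 and 0 CPM in p57KO 1 to 5, and was at 0 in all p57WT libraries. Insulin RNA was thus high in p57KO 2, 3 and 4 only, while the summed factor level was 243 and 275 CPM in p57KO 1 and 5 and 220, 270 and 203 CPM in p57KO 2, 3 and 4. The sum does not show single factors. Pax4 was at 18.1, 29.3 and 25.0 CPM in p57KO 2, 3 and 4, against 9.72 and 12.7 CPM in p57KO 1 and 5. Insm1 and Nkx2-2 were lower in p57KO 2, 3 and 4 than in p57KO 1 and 5, and the other factors were mixed. The part of islet RNA in these levels was not tested. Of 9 islet markers listed, 6 were in the table and 4 were tested, of which 2 rose, and their sum was 45.4 to 414 CPM in p57KO and 7.86 to 26.7 CPM in p57WT. Both acinar markers in the table also rose, with sums of 18.2 to 162 and 8.77 to 13.4 CPM. Of all genes tested, 19.3% were called higher.

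With p57KO 2, 3 and 4 left out, 3 factors were called higher, against 4.68% of all genes: Neurod1 at 2.92, Pax6 at 2.79 and Isl1 at 2.601 (edgeR adjusted p of 0.0245, 0.0114 and 0.0113). Pax4 was then at 1.72 (edgeR adjusted p = 0.0687) and Rfx6 at 1.47 (edgeR adjusted p = 0.0897), with 2 p57KO libraries remaining. With all 10 libraries the values were 2.69, 2.82 and 2.603 for Neurod1, Pax6 and Isl1, and 2.52 and 2.05 for Pax4 and Rfx6.

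**Figure D4:**
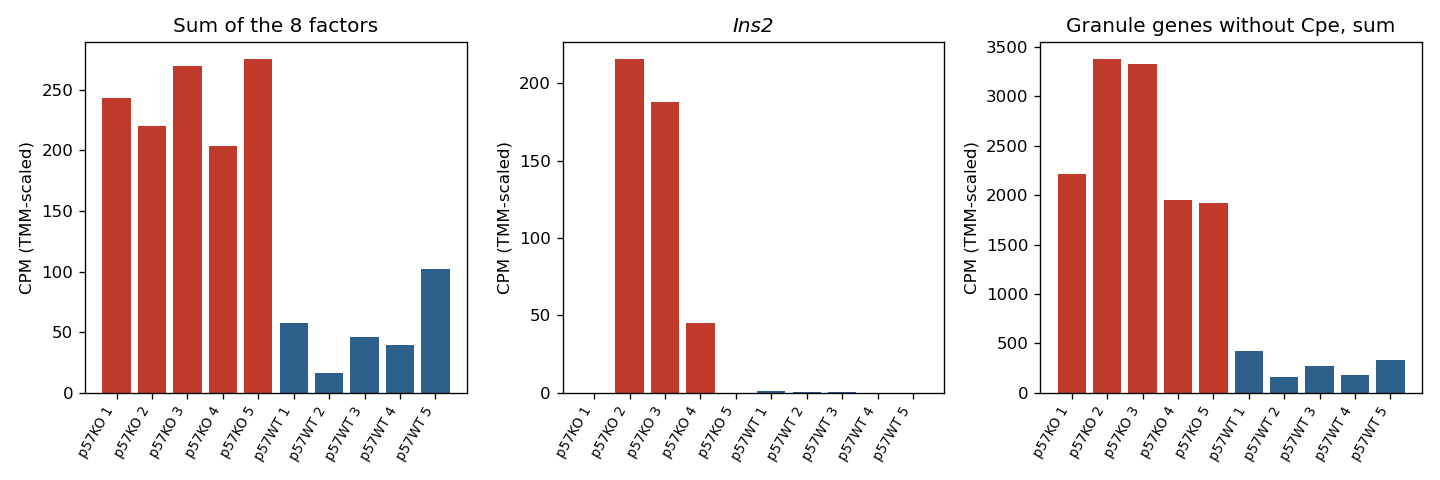
CPM (y axis, linear) in each library of the summed 8 factors (left), Ins2 (middle) and the summed granule genes Chga, Chgb, Scg2, Scg3, Scg5 and Pcsk1n (right), with p57KO in red and p57WT in blue. Ins2 is high in p57KO 2, 3 and 4, and the summed factor level is of the same order in all 5 p57KO libraries, while single factors differ among them.

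Neurons of the gut wall express some of the factors too. Of 13 enteric neuron markers listed, 12 were in the table and 9 were tested; 5 fell (Vip, Hand2, Uchl1, Prph and Stmn2) and 1 rose, Snap25, a vesicle-fusion protein also present in endocrine cells. Their sum was 33.6 to 68.8 CPM in p57KO and 40.6 to 143 CPM in p57WT. Myeloid and erythroid markers moved with genotype as the factors did: 6 of 6 and 5 of 5 tested rose, with sums of 181 to 6947 against 22.5 to 107 CPM and of 90.9 to 1133 against 1.70 to 76.8 CPM. For all 3 lists the background is 19.3% of all genes called higher and 17.2% called lower. The part of neuronal, myeloid and erythroid RNA in the factors' differences was not tested.

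To compare the factors with each other free of library scaling, each was divided by Neurog3 within its library and the log2 ratio compared between genotypes by a two-sided exact permutation test, for which the smallest p is 0.00794. The mean ratio was higher in p57KO by 1.63 for Neurod1, 1.53 for Pax6, 1.31 for Isl1 and 1.16 for Pax4, and differed by 0.65 for Rfx6, 0.36 for Nkx2-2 and -0.05 for Insm1. After adjustment over the 7 ratios 0 passed. A single ratio at the smallest p has an adjusted value of 0.0556 and cannot pass alone, so 0 passing does not show equal ratios. Before adjustment 3 were below 0.05 in the exact permutation test: Isl1 (p = 0.00794, adjusted 0.0556), Neurod1 (p = 0.0159, adjusted 0.0556) and Pax6 (p = 0.0238, adjusted 0.0556). Only for Isl1 did the ratios of all p57KO libraries (0.92 to 2.42) exceed those of all p57WT libraries (-1.08 to 0.85). Without p57KO 2, 3 of the ratios passed, Pax6 at 1.78, Isl1 at 1.44 and Rfx6 at 0.86 (exact permutation test, adjusted p = 0.037 each).

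**Figure D5:**
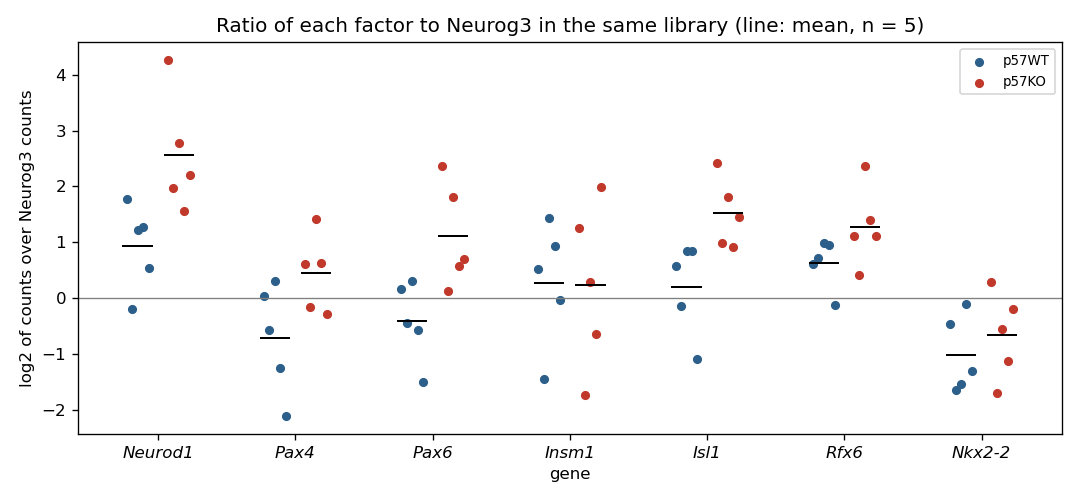
Log2 of each factor's counts over Neurog3 counts in the same library (y axis), p57WT in blue and p57KO in red; the line is the mean (n = 5). For Isl1 the genotypes do not overlap, and for Insm1 and Nkx2-2 they overlap widely.

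The factors were also set against 7 genes of secretory granules, Chga, Chgb, Cpe, Scg2, Scg3, Scg5 and Pcsk1n, which most hormone-making cells share. The log2 ratio to their sum was higher in p57KO by 1.34 for Neurod1, 1.23 for Pax6, 1.02 for Isl1, 0.87 for Pax4, 0.35 for Rfx6 and 0.06 for Nkx2-2, and lower for Neurog3 (-0.30) and Insm1 (-0.34). In the exact permutation test 2 of the 8 had an unadjusted p below 0.05 and 0 passed after adjustment, the smallest adjusted value being 0.0635 for Isl1. Isl1 did not overlap between genotypes, and 0.0635 is the lowest adjusted value that a single ratio can reach alone here. So 0 passing does not show equal ratios. The sum is not the same mixture in both genotypes: Cpe, a peptidase that many cell types express, made up 48.4 to 87.5% of it in p57WT and 8.36 to 17.3% in p57KO. Without Cpe the granule sum was 2558 ± 733 CPM in p57KO and 273 ± 110 CPM in p57WT (SD, n = 5 each). This 9.38-fold difference stood against 4.62-fold for the summed factors (242 ± 31.1 and 52.4 ± 31.7 CPM). Most of the granule sum without Cpe was Chgb, at a mean of 1735 CPM in p57KO and 194 CPM in p57WT. The log2 ratio of every factor to that sum was lower in p57KO, from -0.27 for Neurod1 and -0.37 for Pax6 to -1.90 for Neurog3 and -1.95 for Insm1. Here 3 ratios had an unadjusted p below 0.05 and 0 of 8 passed after adjustment in the exact permutation test. Neurog3 did not overlap between genotypes and again could not pass alone.

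Levels were compared between genes as CPM per kilobase of exon. In p57KO the order was Neurod1 (29.1 ± 10), Pax4 (13.1 ± 5.67), Isl1 (9.38 ± 1.21), Rfx6 (8.64 ± 4.01), Neurog3 (8.26 ± 3.18), Insm1 (6.86 ± 7.30), Nkx2-2 (2.95 ± 1.0) and Pax6 (2.44 ± 0.60 CPM per kilobase, SD, n = 5). In p57WT it was Neurod1 (4.54 ± 3.33), Neurog3 (3.85 ± 3.78), Insm1 (2.70 ± 1.91), Pax4 (2.31 ± 1.14), Rfx6 (2.10 ± 1.14), Isl1 (1.56 ± 0.58), Nkx2-2 (1.11 ± 0.87) and Pax6 (0.35 ± 0.16). Neighbours in both orders overlapped in range, so that Neurog3 had rank 2 in p57WT and rank 5 in p57KO without a test of that difference. Neurod1 exceeded its next neighbour in 5 of 5 p57KO libraries and in 3 of 5 p57WT libraries. In p57KO the last place of Pax6 rests on its 11694 bases of joined exons. With the longest coding transcript of each gene (4427 bases for Pax6) it was at 6.45 CPM per kilobase in p57KO, above Nkx2-2 only. In p57WT Pax6 stayed the lowest of the 8 with that length, at 0.92 CPM per kilobase.

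Ribosomal RNA share and label number were then followed for the 8 factors. Among the libraries above 5% ribosomal RNA (p57KO 5 against p57WT 1, 3, 4 and 5), log2 fold changes ran from 1.05 for Neurog3 to 2.58 for Insm1, and Isl1 was called (2.57, edgeR adjusted p = 0.0172) where 0.0898% of all genes were. The other factors were not called in this contrast. Among the libraries below 5% (p57KO 1 to 4 against p57WT 2) the values were larger, from 2.41 for Neurog3 to 5.19 for Neurod1, and 6 factors were called against 2.7% of all genes. Both contrasts rest on 1 library in 1 genotype, which is assumed to vary like the others. With the ribosomal RNA class as a term, 7 factors were called against 7.22% of all genes, Insm1 at 3.06 (edgeR adjusted p = 0.00306) and Nkx2-2 at 2.48 (edgeR adjusted p = 0.0176) among them, and Neurog3 was at 1.72 (edgeR adjusted p = 0.123). Insm1 thus had a larger fold within each class than in the pooled comparison. Within a genotype, the classes differed as follows. In p57WT all 8 factors were higher in the 4 libraries above 5% than in p57WT 2, by 1.14 for Pax4 to 3.48 for Insm1 on the log2 scale. In edgeR none of these differences passed after adjustment, nor did any gene tested. In p57KO the difference between p57KO 5 and the other four was 2.44 for Insm1 and -0.69 to 0.90 for the other factors, none of them passing. These classes rest on the single libraries p57WT 2 and p57KO 5, and the part of ribosomal RNA share in the levels was not tested.

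Within label number 607 (p57KO 1 and 2 against p57WT 1), all 8 log2 fold changes were positive, from 0.59 for Insm1 to 2.59 for Neurod1. Isl1 was at 2.35 (edgeR adjusted p = 0.0641), Pax6 at 2.33 (edgeR adjusted p = 0.0893), Pax4 at 1.48 and Rfx6 at 1.44. With label number as a term in edgeR, which is this same contrast, 0 of the 8 passed and 1.1% of all genes were called higher. Between label numbers of 1 genotype, 0 factors passed in edgeR, for p57KO (607 against 608) and for p57WT (607 against 740). In the p57KO contrast 6.68% of all genes passed, in either direction.

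Beyond the 8, 29 further factors of endocrine cells were listed, of which 25 were in the table and 22 were tested: 8 rose, 2 fell and the median log2 fold change was 0.84, beside 19.3% of all genes called higher, 17.2% lower and a median of 0.08. Hhex, a homeodomain factor of somatostatin cells, rose from 0.23 ± 0.13 to 6.78 ± 3.28 CPM (log2 fold change 4.95, edgeR adjusted p = 0.000213). Lmx1a, a LIM-homeodomain factor of serotonin-making enterochromaffin cells, rose from 1.84 ± 0.80 to 17.0 ± 9.09 CPM (3.17, edgeR adjusted p = 0.000455). Myt1 (1.96), St18 (1.87), Foxa2 (1.59), Fev (1.29) and Etv1 (1.223) also rose. The factors that fell were Casz1 (-1.58) and Runx1t1 (-1.30). In the hormone list 12 of 13 tested rose and the median was 4.55. Sst, encoding somatostatin, rose by 11.42 on the log2 scale, Gast (gastrin) by 7.45, Cck (cholecystokinin) by 5.51, Sct (secretin) by 4.78, Tph1 (serotonin synthesis) by 3.31 and Tac1 (substance P) by 3.21. These exceed the median of 2.28 of the 8 factors, and the difference between the lists was not tested.

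Neurog3 is restrained by Notch signalling, through Hes1. Of 25 genes listed for Notch and lineage choice, 23 were in the table and 20 were tested: 5 rose, 3 fell and the median was 0.51. Over all genes tested 19.3% were called higher and 17.2% lower, so the counts for this list are near the background and the genes named are single results. Atoh1, the bHLH factor of all secretory cells, rose from 3.85 ± 1.24 to 18.7 ± 4.25 CPM (log2 fold change 2.29, edgeR adjusted p = 0.000404), and Spdef, which acts downstream of it, and Hes6, an inhibitor of Hes1, rose by 1.56 and 1.04. The ligand Dll4 rose by 1.27, the ligand Jag1 fell by 1.56, and the receptors Notch2 and Notch3 fell by 2.32 and 2.43. Hes1, the Notch target that represses Neurog3, had a log2 fold change of 2.48 (edgeR adjusted p = 0.0471), but it was at 2424 CPM in p57KO 1 and at 48.1 to 305 CPM in the other nine libraries. Without p57KO 1 its log2 fold change was 0.39 and its call was lost (edgeR adjusted p = 0.509). That library, p57KO 1, had the lowest Neurog3 of its genotype, 6.36 CPM. Whether these values are related was not tested.

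The genes closest in profile to the 8 factors were found by the root mean square difference over the 10 libraries between log2 CPM profiles centred on their own means. Against the mean profile of the 8, the nearest of 16450 genes was Ffar2, a short-chain fatty acid receptor of enteroendocrine cells, at 0.31, followed by the potassium channel gene Kcnh6 at 0.32. Gm38655 (0.42), Ttc39a (0.43), St18 (0.43), Adgrf5 (0.47), Scn3a (0.47) and Stc2 (0.48) came next, and the median over all genes was 1.37. By the same measure Isl1 lay closest to the mean of the 8 at 0.36, Rfx6 was at 0.45 and Insm1 was farthest at 0.93. To Neurog3 alone the nearest were Cdc42ep2 at 0.43, Cited1 at 0.45 and Mfng, a glycosyltransferase that modifies Notch receptors, at 0.46, against a median of 1.222 over all genes.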

How the data were processed

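RNA was sequenced from 10 libraries of sorted cells. The authors deposited 1 table with raw counts of reads per gene, a normalized signal value per library (the count divided by a size factor), and their own comparison as log2 fold changes, a Wald score and p-values, per the file headers. Reads went through STAR 2.6.1d, HTSeq 1.0, Cufflinks 2.2.1, DESeq2 1.22.2, FastQC and Trim Galore, in roles and an order not given, on build GRCm38 (mm10), per the submitters' processing notes. The strand setting and annotation release are not stated there. Values of single genes from the authors' deposited table are named as such.

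The counts were analysed with edgeR 4.0.16 in R 4.3.3: TMM scaling, the tool's expression filter (3869 genes removed, 16710 tested), genotype as the only term, the quasi-likelihood test and Benjamini-Hochberg adjustment over all genes tested. The test was checked on simulated data that had a fixed dispersion, few changed genes and no shift in cell mixture. The real data differ from that setting, so the check does not extend to them. Ratios within a library used a pseudocount of 0.5 counts and exact permutation tests in SciPy 1.17.1. Alternatives used DESeq2 1.42.0, limma 3.58.1, other scalings, no filter, further terms and left-out libraries. Some were chosen after seeing the data: the contrasts within ribosomal RNA classes, the fit without p57KO 2, 3 and 4, the other gene length and the granule sum without Cpe. Coordinates and exon lengths are from GENCODE's annotation of GRCm38.

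The 8 genes and the gene lists were chosen with earlier results of these data known. Named genes were the 8 factors, up to 6 genes of smallest p in the lists of further factors, of Notch and lineage choice and of hormones, plus Fev, Atoh1 and Hes1, and the nearest profiles; 1 further gene that the rule names is not reported here. Runx1t1, Dll4, Snap25 and the other enteric neuron genes and the genes overlapping a factor were named after their values were seen.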

Additional observations from a re-analysis of the deposited data

Results flagged for a closer look

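In 46 groups of 5 libraries, the gap between an extreme library and its nearest neighbour was set against the group's whole range. In 6 groups it exceeded Dixon's 95% limit, which is made for normally distributed values. CPM was used on the linear scale and the ratio groups share denominators, so the number flagged cannot be set against a chance rate. For Neurog3, p57WT 5 was the highest p57WT library at 17.7 CPM, with a gap of 0.84 of the range. The same library was the highest p57WT library for Rfx6, at 16.2 CPM (0.72 of the range). For Insm1, p57KO 5 was the highest p57KO library at 61.3 CPM (0.83 of the range), and for Nkx2-2 it was the highest at 13.5 CPM (0.79). For the log2 ratio to the summed granule genes, p57WT 2 was the lowest p57WT library for Insm1, at -10.38 (0.80 of the range), and for Isl1, at -9.07 (0.89). Cpe made up 87.5% of the granule sum in p57WT 2.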

How the results depend on the processing

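The number of genes called was 6107 and moved to 10777 with scaling to epithelial markers, 1009 with label number as a term, 2959 with the ribosomal RNA class as a term, 1642 without p57KO 2, 3 and 4, and 15 and 1844 within the libraries above and below 5% ribosomal RNA. The number of factors called, 5, became 0 with label number, 3 without p57KO 2, 3 and 4, and 1 within the libraries above 5%. Leaving out each library gave 4763 to 7141 genes, 5 to 7 factors, 0 to 3 ratios to Neurog3 and 0 ratios to granule genes passing. With fewer libraries too, a single ratio at the smallest possible p cannot pass alone. Signs reversed for Neurog3 with epithelial scaling (-0.39), for Nkx2-2 over granule genes with a pseudocount of 5 (-0.16), and without p57KO 1 and p57KO 2 for Insm1 over Neurog3 (0.26) and over granule genes (0.14). Without Cpe the ratios to granule genes were -0.27 for Neurod1, -0.74 for Pax4, -0.37 for Pax6, -0.59 for Isl1, -1.25 for Rfx6 and -1.54 for Nkx2-2. With 1 library left out, Insm1 over Neurog3 ranged from -0.49 to 0.44, and over granule genes Insm1 ranged from -1.13 to 0.095, Nkx2-2 from -0.45 to 0.39 and Neurog3 from -0.65 to 0.11. Apart from the alternatives' own construction (fewer libraries, another denominator), the cause was not tested.

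Replicate numbers are shared by label only, and the correlations of deviations between same-numbered libraries were 0.20, 0.05, -0.13, -0.12 and 0.15; p57KO 1 correlated best with its own number and the other four p57KO libraries with another. With a replicate block 5804 genes (17.1% higher in p57KO) and 7 factors were called, Insm1 (1.32, edgeR adjusted p = 0.0227) and Nkx2-2 (1.73, edgeR adjusted p = 0.0156) being added. Depth limits Nkx2-2 most, with 10 counts in p57WT 3. The SE and intervals given for fold changes were worked back from the test statistic of the edgeR fit. An interval therefore excludes 0 exactly when the unadjusted p is below 0.05, and adds no evidence to the test. They include the spread between libraries as well as counting error.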
